A study of Mus musculus with 20 samples.

Results

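The comparison described here is the diet by dust interaction in mouse lung: whether the transcript response to hog dust extract (HDE) differed between mice fed a diet rich in docosahexaenoic acid (DHA) and mice fed a control diet. All 20 of the 20 lungs in the series entered it, each placed in 1 of 4 groups by its sample title: 7 mice on the DHA diet given HDE (DHA HDE mice), 3 on the DHA diet given saline (DHA saline mice), 6 on the control diet given HDE (control HDE mice) and 4 on the control diet given saline (control saline mice). All were male wild-type C57BL/6J mice obtained at 5 to 8 weeks of age. They ate their diet for 4 weeks, received 50 µL of 12.5% HDE or of sterile saline once into the nose under isoflurane, and were euthanized 5 h later. Both diets were built on the AIN-93G chow with its soybean oil taken out. Safflower oil high in oleic acid stood in for it in the control diet, and that oil together with a DHA oil (39.2% DHA) in the DHA diet, so that about 1.4% of calories came from DHA. HDE is a sterile extract of settled dust from swine barns. The left lung was taken after bronchoalveolar lavage, and its RNA was counted with the nCounter mouse Immunology panel, in which barcoded probes are counted as single molecules without amplification.

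The interaction is a difference of differences. For each gene it is the log2 HDE response on the DHA diet (DHA HDE over DHA saline) minus the log2 HDE response on the control diet (control HDE over control saline). A value of 1 means that the fold response was 2 times as large on the DHA diet, and a negative value that it was larger on the control diet. Inhaled barn dust carries bacterial cell wall products that are sensed by toll-like and scavenger receptors of airway macrophages and epithelium. These cells then release chemokines and cytokines under control of the transcription factor NF-κB, and neutrophils and monocytes enter the lung from the blood. DHA is an omega-3 fatty acid that is built into cell membranes and is the parent of resolvins and maresins, lipid mediators that limit neutrophil entry and promote clearance by macrophages.

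The raw counts of the 547 endogenous probes summed to 141852 to 684074 in DHA HDE mice, 123536 to 486020 in DHA saline mice, 129599 to 578569 in control HDE mice and 180874 to 401922 in control saline mice. Counts were scaled in each lane by the housekeeping genes Oaz1, Ppia, Rpl19 and Eef1g (scaled counts), and the 358 genes with a mean of at least 82 scaled counts over the 20 mice were tested. The background, taken as the mean plus 2 SD of the 8 negative control probes, averaged 32.0 scaled counts in DHA HDE mice, 44.5 in DHA saline mice, 32.0 in control HDE mice and 31.2 in control saline mice. In single lanes it ran from 7.75 in DHA saline mouse 3 to 97.5 in control HDE mouse 2. Of the genes that mark lung tissue, the panel holds the endothelial Pecam1 and Cdh5, at medians of 2987.3 and 1172.4 scaled counts, but no surfactant or club cell gene, so lung epithelium could not be checked by its defining markers. In bulk lung RNA, fewer cells of a type and less RNA per cell cannot be told apart. The sample titles open with 1 of 2 identifiers, whose digits look like dates in different years. These were read as 2 nCounter runs of 10 mice, although the labels do not name them so. Run 1 held 4, 2, 2 and 2 mice of the DHA HDE, DHA saline, control HDE and control saline groups, and run 2 held 3, 1, 4 and 2. With run as a term of the model, 37 of the 358 genes were lower and 2 higher on run 2 (adjusted p under 0.05 by edgeR). The labels do not say which of the study's independent experimental sets each mouse came from. Replicate numbers given below only name a mouse within its group.

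A pair of control HDE mice stood apart, and interactions were also computed without them for the genes that kept the count minimum, and without mouse 3 alone for all 358 genes. Of the 122 genes that were higher after HDE on at least 1 diet (adjusted p under 0.05, below), control HDE mouse 6 had 0 above the highest of the 7 saline mice, and 59 lay under the lowest saline mouse. In the other 12 HDE mice, 90 to 121 of those genes lay above every saline mouse. The genes were called higher after HDE in these same mice, so high counts in most HDE mice were partly built in. Control HDE mouse 3 carried high counts of T cell and thymocyte transcripts: all 12 thymocyte genes on the panel (genes of T cell precursors in the thymus) exceeded every saline mouse there. So did 11 of the 12 in control HDE mouse 2 and 6 in mouse 4, and at most 3 in any DHA HDE mouse. The lane of mouse 2 had the highest background, 97.5 scaled counts, and some of its values, such as 87.8 for Rag2, lay under it. The 12 thymocyte genes summed to 418 to 921 scaled counts in DHA HDE mice, 620 to 930 in DHA saline mice, 424 to 18800 in control HDE mice (median 945, the highest being mouse 3) and 649 to 855 in control saline mice.

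No gene's HDE response differed between the diets at an adjusted p under 0.05. By edgeR's quasi-likelihood test with Benjamini-Hochberg adjustment, 0 of 358 genes passed (0.0% of those tested), and the lowest adjusted p was 0.9966. DESeq2 and limma also called 0. At an unadjusted p of at most 0.05, which is the threshold the study used, 9 genes remained. One lay above 0 (0.279%): Marco, a class A scavenger receptor of alveolar macrophages that binds bacteria and particles. The 8 below 0 (2.23%) included Thy1, Cd3d, Rag1, Lck, Ccl25, Ccr9 and Cd247, all of them genes of T cells or the thymus. Of those named, only Lck kept the count minimum without control HDE mouse 3. The rest were tested through that lung, in which their counts were highest. Over the 358 genes the interaction had a median of 0.13 on the log2 scale, and 238 genes (66.5%) lay above 0. With scaling by TMM in place of the housekeeping genes the median over all genes was -0.08 and 42.18% lay above 0, so that a shift of the whole panel depends on the scaling and list medians are read against the panel's own.

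**Figure D1:**
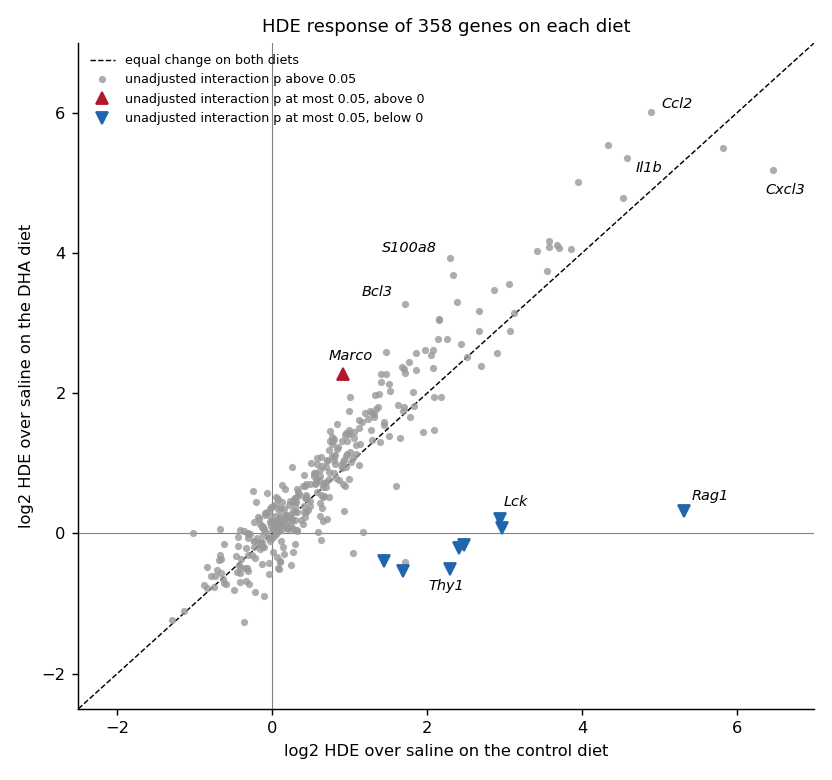
Log2 HDE over saline on the DHA diet (vertical axis) against the same on the control diet (horizontal axis) for the 358 genes tested, with the dashed line marking an equal change on both diets. The red triangle is Marco and the 8 blue triangles are the genes below 0 with an unadjusted interaction p of at most 0.05, which lie far right of the line at about 0 on the DHA axis.

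The standard error of the log2 interaction had a median of 0.52 over the 358 genes and ranged from 0.29 to 2.10, and the 95% confidence interval reached a median of 1.08 to each side, which is a 2.12-fold difference. For 66 genes the whole interval lay within -1 and 1, so a 2-fold difference between the diets in either direction was outside it, and for 293 genes it lay within -2 and 2. For the other genes a difference of that size lay inside the interval.

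HDE changed many genes on each diet. On the DHA diet 109 genes rose after HDE (30.4% of those tested) and 6 fell (1.68%), and on the control diet 90 rose (25.1%) and 3 fell (0.838%), each at an adjusted p under 0.05 by edgeR. With TMM scaling 80 rose and 64 fell on the DHA diet and 60 rose and 14 fell on the control diet, so the balance of rising and falling genes depends on the scaling. The lists shared 77 rising genes, which are 70.6% of the DHA diet list and 85.6% of the control diet list. The 3 genes that fell on the control diet, Fcgrt, Hc and Nox4, also fell on the DHA diet, where Cd79b, Mr1 and Tgfb3 fell as well. Being called on 1 diet alone does not show a difference: the 32 genes that rose only on the DHA diet include Marco, Itgam, Icam1 and Ptgs2, and the 13 that rose only on the control diet include Rag1, Lck, Thy1 and Cd3d, and none of them passed the test of the interaction. Without control HDE mouse 6 the rising genes on the control diet numbered 143, and without mice 3 and 6 they numbered 131. The 122 genes that rose on at least 1 diet were chosen by the same responses that the interaction compares, more of them through the DHA diet alone than through the control diet alone, so their signs are only a description. Of them 99 had an interaction above 0, with a median of 0.38 against 0.13 over all 358 genes. Without mice 3 and 6 that median was 0.14, against 0.01 over all genes.

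Marco had between 364 and 1297 scaled counts in DHA HDE mice, with a median of 499, and 109, 166 and 109 in DHA saline mice. Control HDE mice ranged from 77.4 to 430 with a median of 292, and control saline mice had 176, 216, 144 and 91.0. Every DHA HDE mouse thus lay above every DHA saline mouse, while control HDE mouse 6 lay below all control saline mice and the other 5 above them. The log2 response was 2.27 on the DHA diet (adjusted p = 0.003 by edgeR) and 0.91 on the control diet (adjusted p = 0.110), which gives an interaction of 1.36 (standard error 0.62, 95% interval 0.07 to 2.65, unadjusted p = 0.039, adjusted p = 0.997). It was 1.13 without control HDE mice 3 and 6, 1.25 with run as a block, 1.35 in run 1 alone and 0.99 in run 2 alone. Among the single mice left out in turn, Marco's unadjusted p rose above 0.05 without any 1 of DHA HDE mice 1 and 4, DHA saline mice 1 and 3, control HDE mice 4 and 5, or control saline mice 1 and 2 (interaction 1.07 to 1.34).

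Bcl3, an atypical IκB protein that steers NF-κB p50 and p52 at promoters, had the next smallest p above 0. It stood at 366 to 1184 scaled counts in DHA HDE mice (median 518), and at 72.3, 103 and 17.9 in DHA saline mice. In control HDE mice it ranged from 50.7 to 507 (median 294), and in control saline mice it was at 78.2, 177, 48.7 and 37.3. The groups given HDE overlapped, with 4 of 7 DHA HDE mice above the highest control HDE mouse. Bcl3 rose on both diets, by 3.28 on the DHA diet and 1.72 on the control diet on the log2 scale (adjusted p = 0.003 and 0.036 by edgeR). The interaction of 1.56 (standard error 0.82, unadjusted p = 0.071) did not pass either threshold, and its size depended on the saline mice and on the background. It was 1.09 without DHA saline mouse 3 and 0.91 without control saline mouse 2, the lowest and the highest saline mouse for this gene, but 2.07 (unadjusted p = 0.035) without DHA saline mouse 2 and 2.68 (unadjusted p = 0.0075) with the background subtracted. Its unadjusted p was also at most 0.05 with DESeq2's own size factors, TMM scaling, run as a block and all 14 housekeeping probes (0.021 to 0.044), and without control HDE mouse 1 or control saline mouse 4, whereas its lowest adjusted p in any setting was 0.845.

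**Figure D2:**
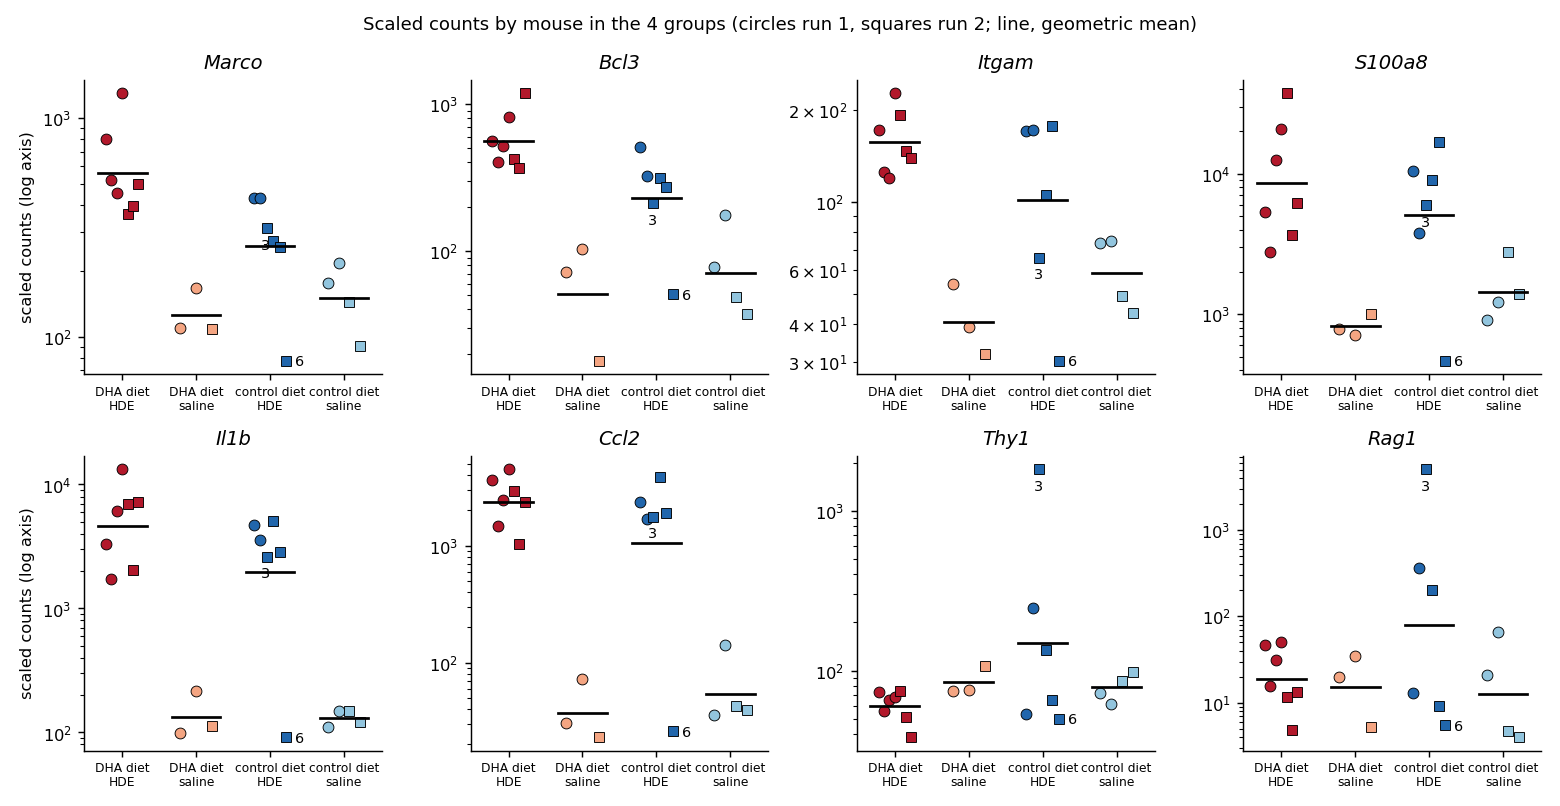
Scaled counts (vertical log axes) of 8 genes in each mouse of the 4 groups, with circles for run 1, squares for run 2, horizontal lines for the group's geometric mean, and control HDE mice 3 and 6 numbered. For Marco, Bcl3, Itgam, S100a8, Il1b and Ccl2, control HDE mouse 6 sits among or below the saline mice, and for Thy1 and Rag1 mouse 3 reaches 1812 and 5054 scaled counts.

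None of the other genes with the smallest p above 0 passed the unadjusted threshold. Itgam and Itgb2 encode the CD11b and CD18 chains of the integrin Mac-1, by which neutrophils and monocytes hold on to endothelium. Itgam ranged from 120 to 228 scaled counts in DHA HDE mice (median 147) and was at 53.9, 39.0 and 31.8 in DHA saline mice. Control HDE mice ranged from 30.3 to 178 (median 139), and control saline mice were at 73.6, 74.5, 49.5 and 43.3. The medians after HDE lay close together, and the lowest control HDE mice were again 3 and 6, at 65.9 and 30.3. Its interaction was 0.95 (standard error 0.57, unadjusted p = 0.110) and 0.56 without those mice. For Itgb2 the interaction was 0.56 (standard error 0.40), and its response passed the test on neither diet.

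S100a8 and S100a9 encode the subunits of calprotectin, the main cytosolic protein of neutrophils, which is released during inflammation. S100a8 spanned 2785 to 37455 scaled counts in DHA HDE mice (median 6221), against 785, 708 and 999 in DHA saline mice. In control HDE mice it spanned 466 to 16798 (median 7503), against 911, 1217, 2762 and 1391 in control saline mice. The median after HDE was thus lower in DHA HDE mice than in control HDE mice. The median after saline was lower on the DHA diet as well, at 785 against 1304. The interaction, which sets each HDE group against its own saline group, was 1.63 (standard error 1.06, unadjusted p = 0.140). S100a9 gave 1.36 (standard error 1.07). Leaving out DHA HDE mouse 5, the highest for both, brought the values to 1.06 and 0.85.

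Plaur, the urokinase receptor of migrating leukocytes, had an interaction of 1.12 (standard error 0.73). It rose on both diets, by 2.59 on the DHA diet and 1.47 on the control diet. Lilrb3, an inhibitory receptor of myeloid cells, had 0.71 (standard error 0.50) and rose on the DHA diet only (log2 1.56, adjusted p = 0.006 by edgeR, against 0.84 and 0.075 on the control diet). Csf2 encodes GM-CSF, the growth factor on which alveolar macrophages depend. It stood at 437 to 1202 scaled counts in DHA HDE mice (median 568) and at 45.4, 78.0 and 73.2 in DHA saline mice. In control HDE mice it was at 52.7 to 720 (median 367) and in control saline mice at 69.1, 71.4, 62.8 and 64.6. Its response was 3.31 on the DHA diet and 2.38 on the control diet, each with an adjusted p of 0.002, and its interaction was 0.93 (standard error 0.67), or 0.52 without control HDE mice 3 and 6. Ccr2, the receptor that brings monocytes out of the bone marrow, had 0.65 (standard error 0.44). Ccbp2, a decoy receptor that takes up CC chemokines (now named Ackr2), had 0.85 (standard error 0.57), and Tgfbi, a matrix protein induced by TGF-β, had 0.38 (standard error 0.30). None of these last genes passed the test on either diet alone.

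**Figure D3:**
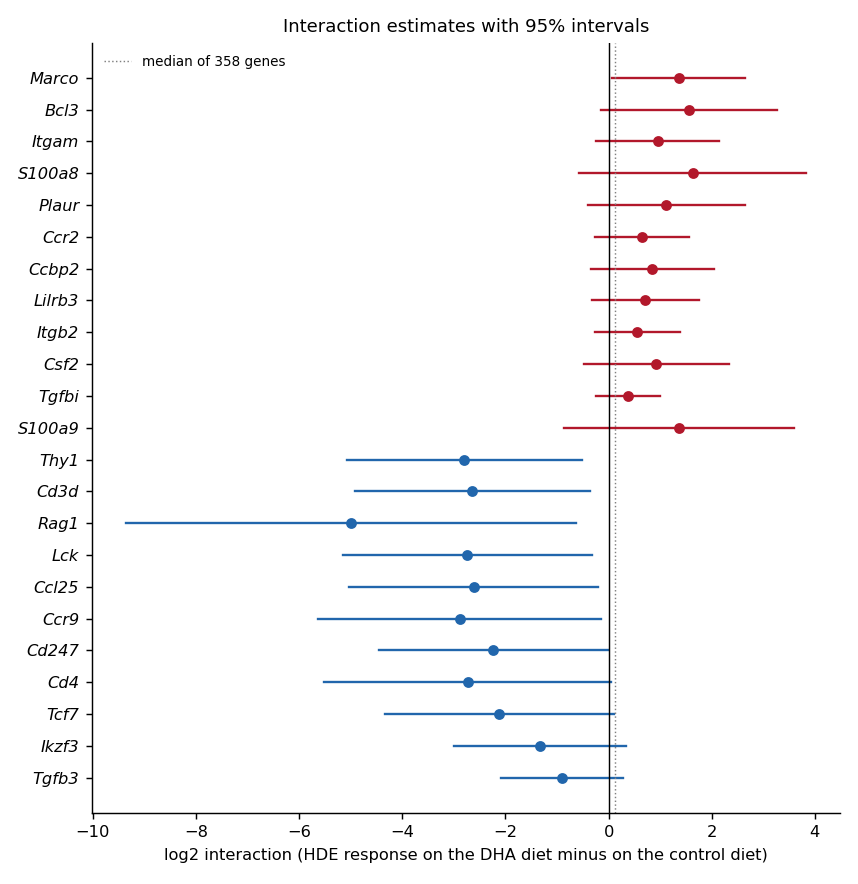
Log2 interaction (point) and its 95% confidence interval (line) for the 12 genes above 0 (red) and 11 of the 12 below 0 (blue) with the smallest interaction p, with the dotted line at the median of the 358 genes. The interval excludes 0 for Marco and for 7 genes below 0, from Thy1 to Cd247, and the widest belongs to Rag1.

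The genes that responded most to HDE gave small interactions against their errors. Il1b encodes interleukin-1β, which activates endothelium and epithelium. It ranged from 1714 to 13217 scaled counts in DHA HDE mice (median 6143) and stood at 99.3, 216 and 113 in DHA saline mice. Control HDE mice ranged from 91.6 to 5033 (median 3235) and control saline mice stood at 110, 148, 148 and 121. All HDE mice but control HDE mouse 6 lay above all saline mice. Its response was 5.36 on the DHA diet and 4.58 on the control diet, with an interaction of 0.78 (standard error 0.95, 95% interval -1.20 to 2.76). Ccl2, the ligand of CCR2 that draws monocytes, was at 1035 to 4476 scaled counts in DHA HDE mice (median 2454) and at 30.7, 71.9 and 23.1 in DHA saline mice. In control HDE mice it was at 25.9 to 3883 (median 1835), and in control saline mice at 36.1, 143, 42.4 and 39.8. Its response of 6.02 on the DHA diet and 4.89 on the control diet gave an interaction of 1.13 (standard error 1.06), which was 0.41 without control saline mouse 2 and 2.78 with the background subtracted. The backgrounds of the lanes of DHA saline mice 1, 2 and 3 were 41.9, 84.0 and 7.75 scaled counts. For Ccl2, mice 1 and 2 thus lay under their own background and mouse 3 above it. Cxcl1, a neutrophil chemokine, had 1.06 (standard error 1.12), or 2.46 with the background subtracted. Cd14, the lipopolysaccharide co-receptor, had 0.20 (standard error 0.82), Cd83, a surface protein of activated antigen-presenting cells, 0.22 (standard error 0.64) and Tnfaip3, which encodes the NF-κB inhibitor A20, 0.61 (standard error 0.75). These 6 genes rose on both diets, and Cd14 and Cd83 changed sign without control HDE mouse 6 (-0.05 and -0.02).

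For Cxcl3 and Ccl20 the sign of the interaction turned with the setting, and their saline counts lay near the background. Cxcl3 encodes a neutrophil chemokine and Ccl20 a chemokine for dendritic cells and interleukin-17-producing T cells. Cxcl3 was at 736 to 3352 scaled counts in DHA HDE mice (median 1752), 24.5, 121 and 7.96 in DHA saline mice, 12.6 to 2136 in control HDE mice (median 890) and 21.0, 10.3, 6.28 and 11.9 in control saline mice. Of the 7 saline mice, 6 lay below their group's average background for Cxcl3. One of them, DHA saline mouse 3 at 7.96, lay just above the background of its own lane, 7.75. The interaction was -1.29 for Cxcl3 (standard error 1.22) and -0.32 for Ccl20 (standard error 1.17). With the background subtracted it was -2.69 and 0.86, with limma 0.30 and 0.74, and without DHA saline mouse 2, the saline mouse in which both were highest, 0.36 and 0.64. Tnf, at 0.19 (standard error 0.94), and Il6, at 0.27 (standard error 0.92), also rose on both diets, and both were below 0 without DHA saline mouse 3 (-0.25 and -0.27). With the background subtracted Il6 stood at 2.46.

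The genes below 0 were led by control HDE mouse 3. Thy1, the surface protein of thymocytes and mature T cells in mice, stood at 38.3 to 74.7 scaled counts in DHA HDE mice (median 65.2) and at 74.8, 76.0 and 107 in DHA saline mice. Control HDE mice spanned 49.9 to 1812 (median 100), and control saline mice stood at 72.1, 62.1, 86.3 and 97.9. In that group mouse 3 was at 1812, mice 2 and 4 at 247 and 135, and the other 3 at 65.4 or lower. All 7 DHA HDE mice lay below all DHA saline mice, the highest of them just under the lowest saline mouse, and the log2 response there was -0.50 (adjusted p = 0.704 by edgeR). On the control diet it was 2.30 (adjusted p = 0.041). The interaction was -2.80 (standard error 1.09, 95% interval -5.07 to -0.52, unadjusted p = 0.018) with all mice and -0.93 (unadjusted p = 0.113) without mouse 3, with the same 358 genes kept. Without mouse 3 alone Thy1 fell under the count minimum, so the value of -0.93 needed the same genes to be kept. Without mice 3 and 6 together Thy1 kept the minimum, and the interaction was -1.12 (unadjusted p = 0.041).

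Rag1, the recombinase that cuts antigen receptor genes in developing lymphocytes, had a fitted interaction of -5.00 (standard error 2.10). It was at 4.88 to 50.6 scaled counts in DHA HDE mice (median 15.4) and at 19.6, 34.9 and 5.17 in DHA saline mice. In control HDE mice it ranged from 5.50 to 5054 (median 107), and in control saline mice it was at 21.0, 66.2, 4.71 and 3.98. Mouse 3 held the 5054, mice 2 and 4 held 362 and 201, and the other 3 control HDE mice at most 12.8, within the saline range. No other lung reached 82 scaled counts of Rag1, and without mouse 3 alone its mean fell under the count minimum, so it was tested through that lung. Most of the other lungs lay under the background given above, so the size of this interaction rests on values not above background. Without mouse 3 the interaction was -1.96 (unadjusted p = 0.233).

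Other genes of T cells and the thymus were also highest in control HDE mouse 3. Lck, the kinase of the T cell receptor, was at 58.4 to 170 scaled counts in DHA HDE mice and 3190 in control HDE mouse 3, and its interaction of -2.74 (standard error 1.16) was -0.97 without that mouse. Cd3d and Cd247, subunits of the T cell receptor complex, gave -2.64 and -2.23 with all mice and -0.98 and -0.97 without it. Ccl25, the chemokine of thymic epithelium, and Ccr9, its receptor on thymocytes, gave -2.62 and -2.89 with all mice and -0.51 and -1.51 without it. Cd4, the co-receptor of helper T cells, gave -2.73 and -0.95, and Tcf7, which encodes the T-lineage factor TCF-1, -2.12 and -0.32. Rag2, Cd8a and Cd8b1, which had too low a mean to be tested, were at 465, 572 and 692 scaled counts in mouse 3, against at most 47.0, 61.4 and 39.5 in DHA HDE mice and at most 22.6, 115 and 37.0 in DHA saline mice. Control HDE mouse 2 came next, at 87.8, 170 and 117, but the background of its own lane was 97.5, above its Rag2 value. Aire, the regulator of thymic epithelium, was at 90.0 in control HDE mouse 3, against at most 30.9 in DHA HDE mice and 28.7 in DHA saline mice. In control HDE mouse 2 it was at 42.6, under the background of that lane. The part of these thymus transcripts in the interaction of other genes was not tested, beyond leaving the mouse out.

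Ikzf3, a transcription factor of lymphocytes, gave -1.33 (standard error 0.80) with all mice. Without control HDE mouse 3, which held 511 scaled counts, Ikzf3 fell under the count minimum and gave -0.34 with the same genes kept. The last of the 12 genes with the smallest p below 0 was Tgfb3, a TGF-β ligand of fibroblasts and smooth muscle (-0.91, standard error 0.57). Tgfb3 was at 88.1 to 208 scaled counts in DHA HDE mice (median 137), 251, 671 and 133 in DHA saline mice, 92 to 261 in control HDE mice (median 155) and 344, 190, 155 and 161 in control saline mice. It fell on the DHA diet (log2 -1.27, adjusted p = 0.022 by edgeR). The value of 671 in DHA saline mouse 2 decided its interaction, which was -0.04 without that mouse.

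**Figure D4:**
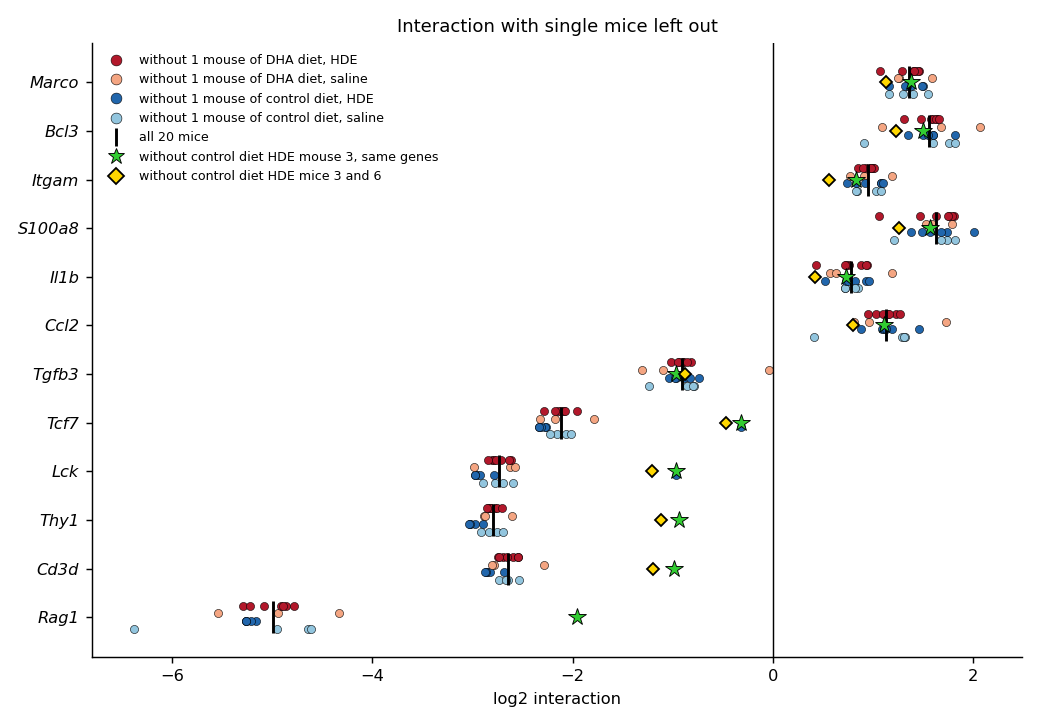
Log2 interaction (horizontal axis) of 12 genes with all 20 mice (black bar), with each mouse left out in turn (circles coloured by group), without control HDE mice 3 and 6 (diamond) and without control HDE mouse 3 with the same genes tested (star). The values of Tcf7, Lck, Thy1, Cd3d and Rag1 move toward 0 without mouse 3, those of Marco and Bcl3 stay above 0 throughout, and Tgfb3 reaches -0.04 without DHA saline mouse 2.

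By gene list, myeloid and adhesion genes lay above the panel's median and lymphocyte genes below it, and in every list 0 members passed the adjusted threshold, the same share as over the panel. The lists overlap (6 panel genes are both T cell markers and thymocyte genes), so they are not separate evidence. Among neutrophil genes 10 of 12 tested lay above 0, with a median of 0.51 against 0.13 over all genes, and 10 rose on the DHA diet and 9 on the control diet, where 30.4% and 25.1% of all genes did. Their summed level spanned 6350 to 65000 scaled counts in DHA HDE mice (median 12800), 2050 to 2690 in DHA saline mice (median 2270), 1250 to 36100 in control HDE mice (median 15400) and 2660 to 5620 in control saline mice (median 3290). S100a8 and S100a9 made up most of these sums, at 37455 and 20966 scaled counts in DHA HDE mouse 5, so the sums largely restate those genes. The median sum was thus lower on the DHA diet both after HDE and after saline, and the list's median interaction, which compares the responses, lay above 0. Of the macrophage genes 8 of 9 lay above 0, with a median of 0.47, and 5 rose on the DHA diet and 4 on the control diet. With TMM scaling 8 of 12 neutrophil genes (median 0.305) and 8 of 9 macrophage genes (median 0.206) lay above 0, against a median of -0.083 over all genes. Macrophage genes summed to 9140 to 21000, 8030 to 8350, 4860 to 14500 and 7590 to 10300 scaled counts in DHA HDE, DHA saline, control HDE and control saline mice. The part of these cell types in the interactions of single genes was not tested. Itgax, which encodes the integrin chain CD11c found on alveolar macrophages, was among them at 0.47 (standard error 0.51).

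Chemokines and cytokines came next. Of the 13 monocyte CC chemokines and receptors 12 lay above 0 with a median of 0.43, of the 5 neutrophil chemokines and receptors 4 with a median of 0.50, and of the 9 proinflammatory cytokines 8 with a median of 0.31. For NF-κB genes and their feedback inhibitors it was 12 of 16 with a median of 0.29, and for anti-inflammatory and resolution genes 15 of 17 with 0.30. Over all genes 66.5% lay above 0, and 42.18% did with TMM scaling. With TMM scaling 12 of 13, 3 of 5, 7 of 9, 8 of 16 and 9 of 17 of these 5 lists lay above 0, in the order given. All 18 adhesion molecules and integrins lay above 0, with a median of 0.43. Their median HDE response was 0.64 on the DHA diet and 0.39 on the control diet. With TMM scaling 13 of the 18 lay above 0, with a median of 0.22 against -0.08 over all genes. All 15 endothelial, stromal and epithelial genes also lay above 0 (median 0.26), and 7 of 15 did with TMM scaling (median 0.00). Without control HDE mice 3 and 6 the medians were 0.20 for neutrophil genes, 0.24 for macrophage genes, 0.17 for monocyte CC chemokines and 0.22 for adhesion molecules, against 0.01 over all genes.

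Only 2 of 6 lipid mediator genes on the panel had enough counts to be tested, although these genes make or sense the products of fatty acids such as DHA. Ptgs2, which encodes the inducible cyclooxygenase COX-2, stood at 224 to 889 scaled counts in DHA HDE mice (median 407) and at 191, 228 and 180 in DHA saline mice. Control HDE mice ranged from 218 to 506 (median 366), and control saline mice stood at 186, 338, 136 and 173. It rose on the DHA diet (log2 1.32, adjusted p = 0.023 by edgeR, against 0.75 and 0.141 on the control diet), with an interaction of 0.57 (standard error 0.54). The DHA HDE and control HDE mice overlapped over most of their range. Platelet genes also had a high median, 0.74 over 3 genes. Ppbp, the platelet chemokine precursor, gave 1.02 (standard error 0.94), with 181 to 1918 scaled counts in DHA HDE mice and 1030, 618 and 517 in DHA saline mice. Control HDE mice ranged from 100 to 1238, and control saline mice stood at 1689, 1221, 2364 and 545. Its diet difference was 0.01 after HDE and -1.01 after saline, so the value lay in the saline mice, and Ppbp passed the HDE test on neither diet.

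Interferon-induced, pattern recognition, complement and antigen presentation genes lay near the panel's median. Of 15 interferon-induced genes 12 lay above 0 (median 0.17), and Stat2, a transducer of type I interferon signals, had 0.47 (standard error 0.45). Of 19 pattern recognition receptors and adaptors 16 did (median 0.20), among them the kinase Irak4 (0.39, standard error 0.39). Complement split evenly, with 9 of 18 above 0 and a median of 0.00. For class II presentation genes it was 5 of 9 (median 0.03), with the protease Ctss at 0.37 and H2-Ob, a chain of the peptide exchange inhibitor H2-O, at -0.59 (standard errors 0.53 and 0.51). For class I presentation genes it was 7 of 8 (median 0.08), with H2-K1 at 0.34 and the presenter of vitamin metabolites Mr1 at -0.30 (standard errors 0.49 and 0.33). Costimulatory and checkpoint genes gave 6 of 7 (median 0.12), with Cd274, which encodes PD-L1, at 0.47 and Cd80 at -0.30 (standard errors 0.69 and 0.71). With TMM scaling the numbers above 0 were 6 of 15 interferon-induced, 10 of 19 pattern recognition, 5 of 18 complement, 2 of 9 class II, 3 of 8 class I and 3 of 7 costimulatory genes. The share over all genes was 66.5% with the housekeeping genes and 42.18% with TMM scaling.

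**Figure D5:**
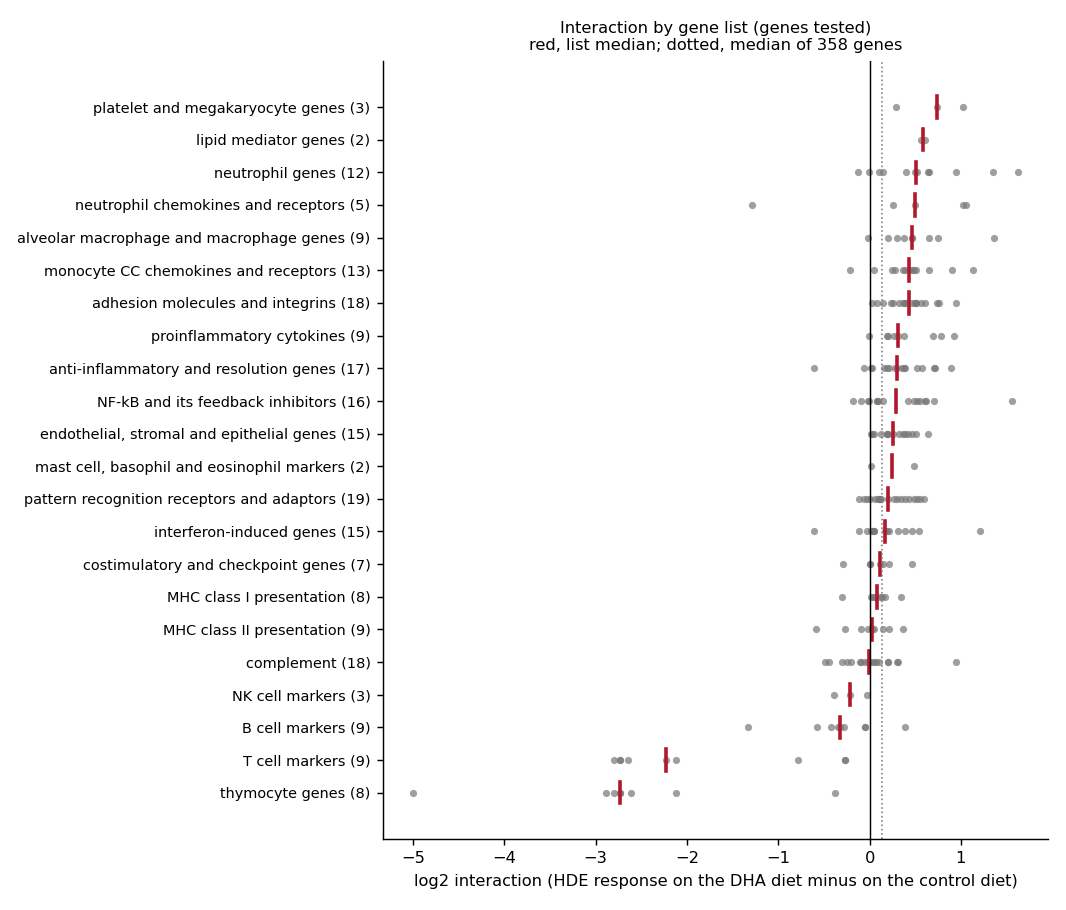
Log2 interaction (horizontal axis) of each tested gene (grey points) in the 22 gene lists, sorted by list median (red bar), with the number of genes tested in brackets and the median of all 358 genes dotted. Medians run from 0.74 for platelet genes to -2.74 for thymocyte genes, and T cell and thymocyte genes all lie below 0.

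All 9 T cell markers tested lay below 0 (median -2.23) and so did all 8 thymocyte genes (median -2.74). Without control HDE mouse 3 only 5 of these T cell markers and 3 of these thymocyte genes kept the count minimum. The rest were tested through the lung in which they were high, so the shared sign is only a description. Over the genes that kept it the medians were -0.17 for 5 T cell markers and -0.32 for 3 thymocyte genes, which are not the same genes as in the medians above. With the same genes kept, the members given earlier stood at -0.32 (Tcf7) to -1.96 (Rag1) without mouse 3. Without mice 3 and 6 together the medians were -0.47 over 7 T cell markers and -0.79 over 4 thymocyte genes. B cell markers had 1 of 9 above 0 (Btk, a B cell receptor kinase, 0.39) and a median of -0.32, or -0.08 over 6 without mouse 3. The 3 NK cell markers had a median of -0.21 and Gzma, a granzyme of killer cells, -0.39 (standard error 0.71). Of the 2 mast cell, basophil and eosinophil markers tested, Fcer1g, the signalling chain of Fc receptors, had 0.49 (standard error 0.58). Of the endothelial, stromal and epithelial genes, Pdgfb, which encodes the B chain of platelet-derived growth factor, had 0.64 (standard error 0.53).

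The interaction can also be read as the diet difference after HDE minus the diet difference after saline. These diet differences use the same mice as the HDE responses above and are not separate evidence. After HDE 0 genes passed adjustment, and 9 lay higher (2.51%) and 13 lower (3.63%) in DHA HDE than in control HDE mice at an unadjusted p of at most 0.05. After saline 0 passed, and 1 gene did at the unadjusted threshold (0.279%): Ms4a1, which encodes the B cell protein CD20, at 0.73 on the log2 scale in DHA saline over control saline mice. DESeq2 with its own size factors called 7 genes and with the housekeeping factors 5 after HDE, and edgeR called 8 without control HDE mouse 6. For Marco the diet difference was 1.06 after HDE and -0.30 after saline, for Bcl3 it was 1.13 and -0.44, and for Thy1 it was -2.69 and 0.11, so the larger part of these interactions lay in the HDE mice. For S100a8 it was 0.71 and -0.92, so the larger part lay in the saline mice.

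Further genes that the study named gave interactions within 1 standard error of 0. The study named Cfb, Pigr, Cxcl12, Itga6 and Stat5b for differences between the diets, in all mice or after HDE, and not for an interaction. A diet difference of equal size after saline and after HDE would give an interaction of 0. Complement factor B (Cfb) had 0.20 (standard error 0.70) and the IgA transporter Pigr 0.21 (standard error 0.58), and both rose on both diets. Cxcl12, a stromal chemokine, had 0.12 (standard error 0.45), the laminin receptor chain Itga6 0.32 (standard error 0.51) and the cytokine signal transducer Stat5b -0.44 (standard error 0.47, -0.08 without control HDE mouse 3). Mif, macrophage migration inhibitory factor, stood at -0.04 (standard error 0.61). Pigr and Cfb lay below 0 without control HDE mice 3 and 6, at -0.15 and -0.12.

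A single score per mouse was compared in the same way. The first principal component of log2(scaled count + 1) over the 358 genes, turned so that HDE mice score high, averaged 11.1 ± 7.29 in DHA HDE mice (SD, n = 7), -15.6 ± 7.30 in DHA saline mice (SD, n = 3), 5.16 ± 14.1 in control HDE mice (SD, n = 6) and -15.5 ± 4.07 in control saline mice (SD, n = 4). The HDE response in this score was thus 6.11 units larger on the DHA diet, and the two-sided exact permutation test over 60060 arrangements of diet within exposure gave p = 0.444. Control HDE mouse 6 scored -23.3. The difference was 0.54 units without it (exact permutation p = 0.918) and 2.39 without DHA saline mouse 3, which scored -23.4 (exact permutation p = 0.776).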

How the data were processed

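Raw counts were deposited by the authors as exported from nSolver, 1 column per lane, with no background subtracted. The second deposited table holds the authors' normalized values, treated as a signal. Within each lane they equalled the raw count times 1 factor, so that the geometric means of 4 housekeeping genes (Eef1g, Oaz1, Ppia, Rpl19) become equal (1.18 times the scaled counts used here). No genome alignment applies to this assay. Of 547 probe names, 531 matched RefSeq symbols.

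Raw counts of endogenous probes were scaled by the same 4 genes and tested with edgeR 4.0.16 (quasi-likelihood test, R 4.3.3) in a model of the 4 group means, over genes with a mean of at least 82 scaled counts, with Benjamini-Hochberg adjustment at 0.05. Standard errors and 95% intervals came from the same fit. Nothing says which lungs shared a cage or experimental set, so p-values measure the spread between these mice. No 2 lanes agreed within counting noise (lowest chi-square per degree of freedom 7.70 over 190 pairs).

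Members, gene lists (22) and the rule for named genes were chosen with earlier results of these data known. The rule takes the 12 genes in each direction with the smallest interaction p, genes the study named, the 8 genes with the smallest p for HDE over both diets, and the member of each list with the smallest interaction p in each direction. A few of these are not reported here. Fcgrt, Hc, Nox4, Cd79b, Icam1, Ms4a1, Rag2, Cd8a, Cd8b1 and Aire were named after their values were seen.

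Alternatives were TMM scaling, all 14 housekeeping probes, DESeq2 1.42.0, limma 3.58.1 on log2(deposited value + 1), background subtraction, other count minimums, run as a block or each run alone, and each mouse left out. Control HDE mice 3 and 6 were also left out together. That pair was picked because its values stood apart in these data, so its exclusion was not chosen independently of them. Leaving out control HDE mouse 3 with the same genes kept, and a minimum of 82 on the deposited scale, were chosen after seeing the data. The pipeline was tested on simulated data.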

Additional observations from a re-analysis of the deposited data

Results flagged for a closer look

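For each named gene and the first component, the gap between the most extreme mouse of a group and its neighbour was set against the group's range (Dixon's test, groups of 4 or more), which chance alone exceeds in about 1 group in 20. Of 165 groups tested 26 exceeded the critical value, 16 of them for control HDE mouse 6. In that mouse scaled counts were lowest of its group for Marco (77.4), Ccr2 (160), Lilrb3 (88.0), Tnf (25.9), Il6 (13), Cxcl1 (27.5), Ccl2 (25.9), Il1b (91.6), Cd14 (253), Cd83 (110), Ccl20 (14.1), Cxcl3 (12.6), Tnfaip3 (134), Cd274 (107) and Cd80 (24.8), and its first component score was -23.32.

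Control HDE mouse 3 was highest for Ccl25 (1241) and Tcf7 (3053). DHA HDE mouse 7 was lowest for Tcf7 (37.2), Cxcl12 (225) and Irak4 (87.6), and DHA HDE mouse 6 was lowest for Cd4 (16.0). Control saline mouse 1 was highest for Ccbp2 (295), Ikzf3 (99.2) and H2-Ob (135), and control saline mouse 2 for Ccl2 (143).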

How the results depend on the processing

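The count of 0 genes with an adjusted interaction p under 0.05 held under every alternative run. At the unadjusted threshold, 2 genes lay above 0 with TMM, all 14 housekeeping probes, DESeq2's own size factors, background subtraction and run as a block, and 0 with 82 counts in every mouse or run 1 alone. Below 0 there were 0 with limma, with 82 counts in every mouse, in run 2 alone and without control HDE mouse 3 with the same genes, 1 without mice 3 and 6, 2 in run 1 alone and 4 with background subtraction. Leaving out single mice gave 0 to 2 above 0 and 0 to 11 below, with 0 below without control HDE mouse 3, 1 and 3 without DHA saline mice 2 and 1, 3 and 2 without control saline mice 3 and 4, and 5 without DHA HDE mouse 5. On the DHA diet 69 genes rose with 82 counts in every mouse and 0 in run 2 alone, which holds 1 DHA saline mouse. There 64 fell with TMM, 62 with DESeq2's own size factors, 14 with 14 housekeeping probes, 3 in run 1 alone and 0 in run 2 alone. Single mice left out gave 46 (without DHA saline mouse 3, and 60 without mouse 1) to 127 rising and 1 (without DHA saline mouse 1) to 8 falling genes. On the control diet 41 rose with limma, 38 with 82 counts in every mouse, 54 in run 1 alone and 0 in run 2 alone, and 14 fell with TMM, 24 with DESeq2's own size factors, 6 with run as a block and 0 in run 2 alone. Single mice left out gave 33 to 143 (without control HDE mouse 6) rising and 1 (without control saline mouse 1, 3 or 4) to 6 (without DHA HDE mouse 7, and 5 without control HDE mouse 5) falling genes. Without control saline mice 1 to 4 in turn 44, 57, 34 and 33 rose, and 59 without control HDE mouse 4. Between HDE mice of both diets 7 genes differed with DESeq2's own size factors, 5 with its housekeeping factors, 1 with background subtraction and 0 to 8 with single mice left out (3, 4 and 8 without control HDE mice 1, 5 and 6). The first component's interaction was 0.54 to 9.47 with single mice left out and 0.12 without mice 3 and 6. Signs turned for Pigr (-0.15), Cfb (-0.12), Tnf (-0.13), Il6 (-0.13), Cd14 (-0.22) and Cd83 (-0.053) without mice 3 and 6, for Cxcl12 (-0.11) and Itga6 (-0.009) with TMM, for Mif (0.062), Ccl20 (0.74) and Cxcl3 (0.30) with limma, for Ccl20 (0.86) with background subtraction and for Mif (0.043) without mouse 3. Single mice left out gave -0.14 to 0.79 for Pigr, -0.004 to 0.31 for Cxcl12, -0.25 to 1.33 for Cfb, -0.25 to 0.77 for Tnf, -0.27 to 1.40 for Il6, -0.35 to 0.34 for Mif, -0.13 to 0.91 for Cd14, -0.019 to 0.37 for Cd83, -0.86 to 0.64 for Ccl20 and -1.85 to 0.36 for Cxcl3. The causes were not tested. No paired analysis was possible because the replicate numbers follow accession order and carry no pairing.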
